A study of Homo sapiens with 6 samples.

Results

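The genes described here belong to the heme synthesis pathway, and they are 9 of the 23710 gene symbols counted in the series: ALAS1, ALAS2, SLC25A38, ALAD, UROS, UROD, CPOX, PPOX and FECH. They were taken by symbol as members of the pathway, with earlier results of these data known. Their order is that of the pathway, with SLC25A38, a carrier that supplies the first step, placed after ALAS1 and ALAS2. The cells are K562, a human cell line from a chronic myelogenous leukemia that makes embryonic and fetal globins. In the treated group, 3 libraries came from K562 cells given 20 µM 3FM-dC together with 2 mM THU for 24 h. In the DMSO group, 3 libraries came from K562 cells given the same amount of DMSO, the solvent of both compounds, for 24 h. Effects of 3FM-dC and of THU cannot be told apart, because no library received a single compound. The series' title concerns an activator of TET2, which oxidises methylated cytosine in DNA, and the RNA sequencing asked which transcripts 3FM-dC alters. Whether replicates were separate cultures is not stated, and p-values therefore reflect library-to-library spread that could be technical.

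Heme is a ring of porphyrin with an iron atom at its centre, and it carries oxygen in hemoglobin and electrons in cytochromes. Its synthesis starts in the mitochondrion, where glycine and succinyl-CoA are joined, continues in the cytosol, and ends in the mitochondrion with the insertion of iron. Red cell precursors switch from the housekeeping first enzyme ALAS1 to the erythroid enzyme ALAS2, and the erythroid transcription factors GATA1 and KLF1 are known activators of pathway genes in these cells.

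Treated K562 cells had fewer transcripts of most heme synthesis genes, and ALAS2 went the other way. FECH, which inserts the iron, fell 1.83-fold and CPOX, which acts shortly before it, fell 1.84-fold. UROD, UROS, ALAS1, PPOX and SLC25A38 fell by smaller amounts, while ALAS2 rose 1.32-fold. At an adjusted p under 0.05 (quasi-likelihood test of edgeR, Benjamini-Hochberg over all tested genes), 8 of the 9 genes changed, 1 higher and 7 lower, and ALAD did not pass. The groups overlapped for SLC25A38, and its call was lost in 5 of 12 alternative settings. Across all 12339 tested genes 66.4% changed, 33.8% higher and 32.7% lower, so a high count of changed genes is also the background of these libraries. With total counts in place of TMM scaling, 5059 of all tested genes were higher and 3185 lower, against 4167 and 4031 with TMM. The median log2 fold change of all tested genes then moved from 0.01 to 0.10. The median over the 9 heme genes was -0.37 with TMM and -0.28 with total counts.

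All 9 genes passed the filter on low counts in both groups, with between 336 (ALAD) and 12989 (UROD) counts in a library. Gene counts per library ran from 18408826 to 22750278, and the 9 genes took between 0.108% and 0.111% of them in DMSO and between 0.0838% and 0.0872% in treated libraries. Levels below are CPM, counts scaled to 1 megacount of TMM-adjusted library size. Summed over the 9 genes they fell 26.7% short in treated cells, at 826 ± 11.6 CPM against 1127 ± 15.1 CPM in DMSO (SD, n = 3 each). UROD made up 51.1% of this sum in DMSO and 49.8% in treated cells. Without UROD the DMSO sum was 551 ± 5.51 CPM and the treated sum 415 ± 15.7 CPM. In a culture sequenced in bulk, fewer cells of a kind and less RNA per cell cannot be told apart.

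**Figure D1:**
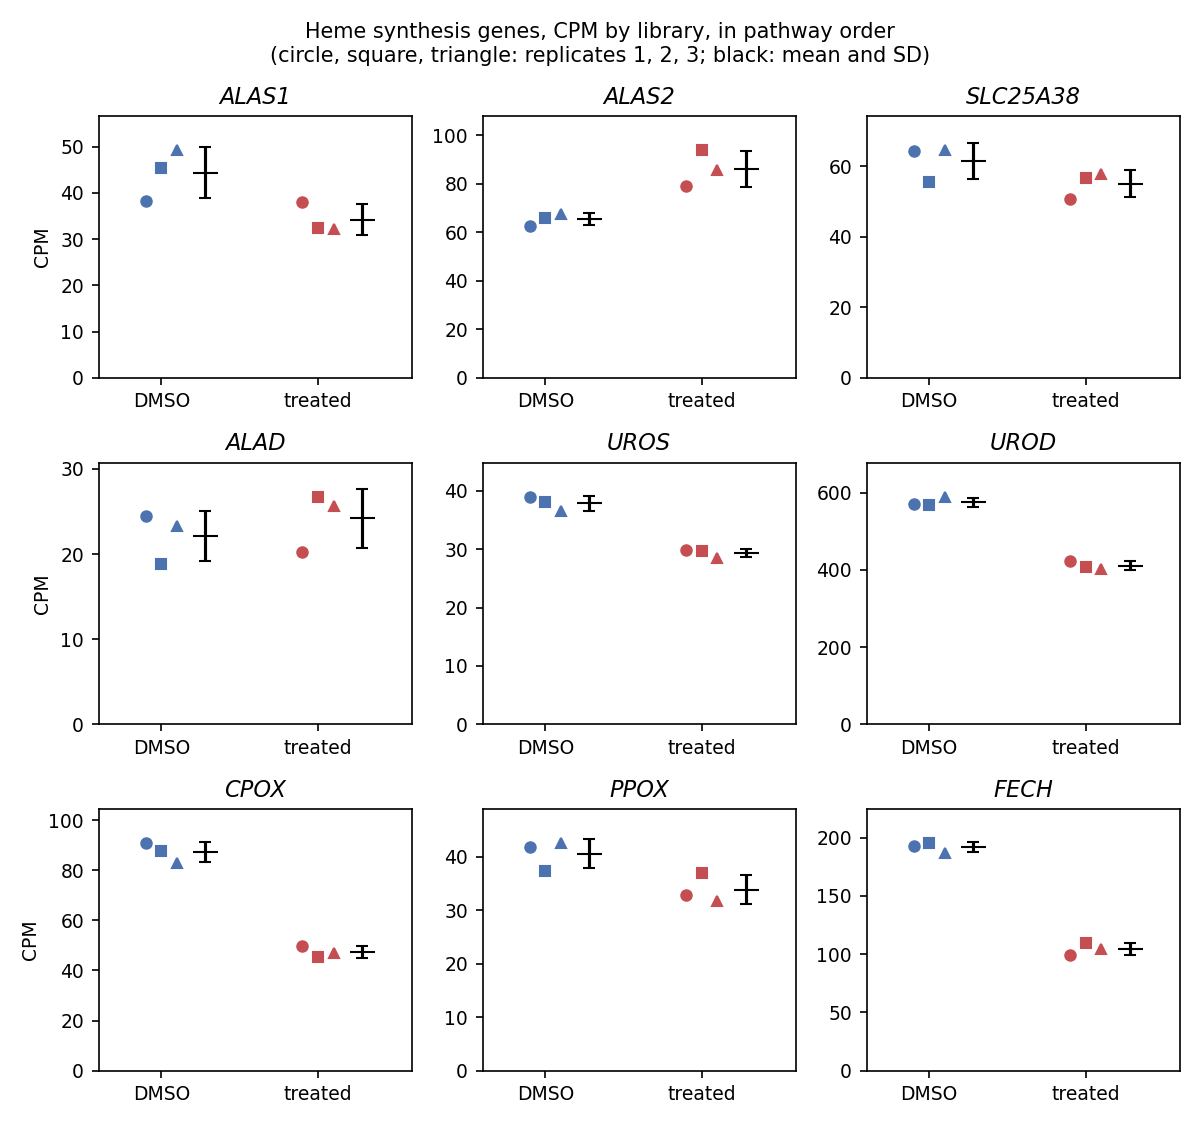
CPM (vertical axis, starting at 0) of the 9 heme synthesis genes in each of the 6 libraries, 1 panel per gene in pathway order; circles, squares and triangles are replicates 1, 2 and 3, and the black mark is the mean with its SD (n = 3). CPOX, FECH, UROD and UROS lie clearly lower in treated libraries, ALAS2 lies higher, and the groups overlap for SLC25A38 and ALAD.

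The first step is catalysed by 5-aminolevulinate synthase, made from ALAS2 in red cell precursors and from ALAS1 in other tissues. ALAS2 had 62.8, 65.9 and 67.5 CPM in DMSO replicates 1, 2 and 3, and 78.9, 93.7 and 85.7 CPM in treated replicates 1, 2 and 3. Every treated library thus lay above every DMSO library, and treated replicate 2 was the highest. The log2 fold change was 0.40 (SE 0.06, 95% interval 0.28 to 0.52, edgeR adjusted p = 8.23e-07), and the call held under all 12 alternative settings tried.

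ALAS1, a gene that heme represses in liver, went down. It had 38.3, 45.5 and 49.2 CPM in the DMSO libraries and 38.0, 32.4 and 32.3 CPM in the treated ones. The groups did not overlap, but treated replicate 1 lay just under DMSO replicate 1. ALAS1 fell by 0.38 on the log2 scale (SE 0.08, 95% interval -0.54 to -0.21, edgeR adjusted p = 0.000176). Against a minimum fold of 1.2, a stricter test chosen after the data were seen, it did not pass (adjusted p = 0.0641; range over all alternatives 1.37e-07 to 0.0641).

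The ratio of ALAS2 to ALAS1 counts within a library does not depend on how libraries are scaled. For the DMSO libraries it was 1.64, 1.45 and 1.37 (replicates 1, 2 and 3), and for the treated libraries 2.08, 2.89 and 2.66. ALAS2 therefore made up between 57.8% and 62.1% of the counts of both genes in DMSO and between 67.5% and 74.3% in treated libraries. The ratio was 1.70-fold higher in treated libraries, a log2 difference of 0.76 with a standard error of 0.16, and it was higher in 3 of 3 of them. An exact two-sided permutation test gave p = 0.1, the smallest p that 3 libraries against 3 allow. Every treated library was higher in ALAS2 and lower in ALAS1 than every DMSO library. The outcome of this test therefore follows from the levels above and is no separate support. Per kilobase of exon, ALAS2 exceeded ALAS1 by 1.71 ± 0.158 times in DMSO and by 2.92 ± 0.483 times in treated cells (SD, n = 3 each).

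**Figure D2:**
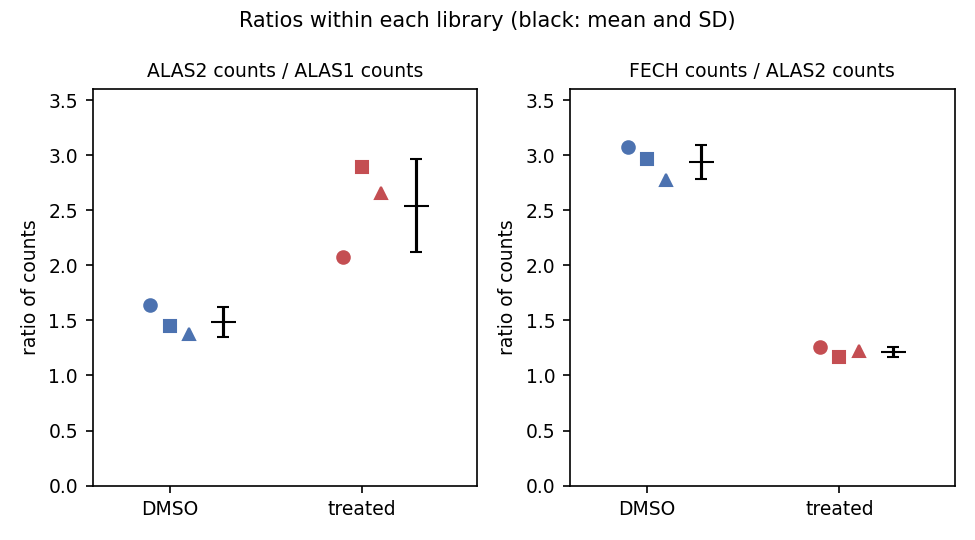
Ratio of counts within each library (vertical axes, no unit, starting at 0) for ALAS2 over ALAS1 (left) and FECH over ALAS2 (right); circles, squares and triangles are replicates 1, 2 and 3, and the black mark is the mean with its SD (n = 3). The first ratio is between 1.37 and 1.64 in DMSO and between 2.08 and 2.89 in treated libraries, and the second drops from between 2.77 and 3.08 to between 1.17 and 1.26.

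Promoter sequences are shown for ALAS2 and CPOX, since these genes moved in opposite directions and both hold the letters of a GATA site, and for ALAS1 only around the letters of a site of the factor NRF1. They are from RefSeq on the build GRCh38.p14, which gave 10 start sites for 8 of the 9 genes (all but UROS), and each is written 5′ to 3′ along the gene's strand. Capitals mark matches, on either strand, to a GATA site, spelled AGATAA or else with a different first letter as TGATAA. They also mark the box CACCC that KLF factors bind and, for the factor NRF1, the core GCGCANGC. The ALAS2 stretch is the 250 bases before the start site at chrX:55030978-55031227, minus strand. The CPOX stretch is the 250 bases before the start site at chr3:98593612-98593861, minus strand. The ALAS1 stretch is 28 bases at chr3:52198094-52198121, plus strand, just after the start site, with 2 overlapping matches on opposite strands, and a further match lies 7 bases before that start.
ALAS2: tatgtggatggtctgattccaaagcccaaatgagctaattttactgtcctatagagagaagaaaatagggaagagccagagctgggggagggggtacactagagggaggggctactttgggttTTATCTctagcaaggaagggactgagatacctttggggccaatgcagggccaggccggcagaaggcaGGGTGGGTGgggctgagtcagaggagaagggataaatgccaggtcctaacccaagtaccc
CPOX: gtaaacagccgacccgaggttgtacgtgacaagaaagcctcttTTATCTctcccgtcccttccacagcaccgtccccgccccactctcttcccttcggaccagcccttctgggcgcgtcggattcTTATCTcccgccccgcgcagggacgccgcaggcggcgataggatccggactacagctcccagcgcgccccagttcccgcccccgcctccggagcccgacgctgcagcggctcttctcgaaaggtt
ALAS1: agcgcccaagGCGCATGCGCagcggtca

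In these windows the ALAS2 promoter has 1 GATA match, which begins 127 bases before the start site, and 2 overlapping CACC boxes 60 and 56 bases before it. CPOX has GATA matches 207 and 125 bases before its start. A further GATA match lies 63 bases before the second start site of PPOX. In windows of 300 bases (250 before and 50 after a start site), 3 of the 10 promoters, those of 3 genes, had a GATA match, against 16.3% of all 35116 RefSeq promoters. A CACC box was present in 9 of the 10 promoters, those of 7 of the 8 genes, against 59.9% of all promoters. The windows of the ALAD start sites overlap and share a CACC box, as do those of PPOX. The 10 promoters are therefore not separate sequences. The letters GCGCANGC were found in 1 of the 10 promoters, that of ALAS1, against 11.98% of all promoters. The ATF4 element TGATGNAAN was found in 0 of the 10, against 3.61%. These are matches of letters in a short window and were not tested as binding sites. In these spellings, the GATA matches lay in the riser ALAS2 and the fallers CPOX and PPOX, and FECH, which fell as far as CPOX, had none. Other spellings of a GATA site, such as AGATAG, were not searched. Whether matches go with the changes was not tested.

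SLC25A38 encodes the mitochondrial carrier that brings in glycine for the first step. Its levels were 64.3, 55.6 and 64.5 CPM in DMSO and 50.7, 56.8 and 57.9 CPM in treated libraries. The groups overlapped, since DMSO replicate 2 lay below treated replicates 2 and 3. The log2 fold change was -0.16 (SE 0.06, 95% interval -0.29 to -0.02, edgeR adjusted p = 0.0337). The call was lost with total counts (-0.07, adjusted p = 0.375) and against the minimum fold of 1.2 (adjusted p = 1). It was also lost without DMSO replicate 1 (-0.13, adjusted p = 0.13) or DMSO replicate 3 (-0.12, adjusted p = 0.17). Without treated replicate 1 the call was lost too (-0.11, adjusted p = 0.163). Over all alternatives the adjusted p ranged from 0.00577 to 1. The pseudogenes SLC25A38P1 and FECHP1 are named in the reference gene list, and whether they shared reads with SLC25A38 and FECH was not tested.

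ALAD is the cytosolic enzyme that joins pairs of aminolevulinate molecules into porphobilinogen. It had 24.4, 18.8 and 23.2 CPM in DMSO and 20.3, 26.7 and 25.6 CPM in treated libraries. The low libraries were DMSO replicate 2 and treated replicate 1, and the groups overlapped. ALAD did not pass the test (log2 fold change 0.13, 95% interval -0.08 to 0.33, edgeR adjusted p = 0.275). The interval reaches 0.33, so a rise of that size was not separable from none. Without treated replicate 1 the gene passed (0.23, adjusted p = 0.0365), and without DMSO replicate 2 or treated replicate 2 the value shrank to 0.02 and 0.05 (adjusted p = 0.876 and 0.69; range over all alternatives 0.0365 to 0.98).

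UROS closes the linear tetrapyrrole into a ring. Its levels were 39.0, 38.2 and 36.5 CPM in DMSO and 29.9, 29.8 and 28.6 CPM in treated libraries. All treated libraries lay below all DMSO libraries, and the spread within each group was small. UROS fell by 0.37 on the log2 scale (SE 0.07, edgeR adjusted p = 3.74e-05). It did not pass against the minimum fold of 1.2 (adjusted p = 0.0565; range over all alternatives 1.98e-06 to 0.0565).

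UROD, which removes carboxyl groups from the side chains of the ring, was by far the most abundant of the 9. It had 570.2, 569 and 590 CPM in DMSO and 424, 407 and 402 CPM in treated libraries. The groups were well separated. UROD fell by 0.49 on the log2 scale (SE 0.03, 95% interval -0.56 to -0.42, edgeR adjusted p = 4.13e-13).

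CPOX, coproporphyrinogen oxidase of the space between the mitochondrial membranes, fell the most together with FECH. It had 90.8, 87.8 and 82.9 CPM in DMSO and 49.8, 45.4 and 46.9 CPM in treated libraries. The lowest DMSO library was far above the highest treated one. CPOX fell by 0.88 on the log2 scale (SE 0.06, 95% interval -0.995 to -0.763, edgeR adjusted p = 7.22e-14).

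PPOX, which oxidises protoporphyrinogen to protoporphyrin, fell less than the genes on either side of it. Its levels were 41.8, 37.4 and 42.5 CPM in DMSO and 32.7, 36.9 and 31.8 CPM in treated libraries. The groups did not overlap, although treated replicate 2 came close to DMSO replicate 2. PPOX fell by 0.26 on the log2 scale (SE 0.07, 95% interval -0.41 to -0.11, edgeR adjusted p = 0.0023), an interval that does not meet those of CPOX and FECH, although the difference between genes was not tested. With total counts the fall was 0.17 (adjusted p = 0.0401), and the gene did not pass against the minimum fold of 1.2 (adjusted p = 0.44; range over all alternatives 0.000139 to 0.44).

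FECH, ferrochelatase, completes heme by inserting iron. It had 193, 195 and 187 CPM in DMSO and 99.6, 109.6 and 104 CPM in treated libraries. All 3 treated libraries lay far below the DMSO libraries. FECH fell by 0.87 on the log2 scale (SE 0.04, 95% interval -0.97 to -0.78, edgeR adjusted p = 3.1e-16). Among all tested genes, 3.59% had a lower log2 fold change than FECH and 3.55% a lower one than CPOX, while 75.1% lay below ALAS2.

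The last enzyme can also be set against the first within each library. The ratio of FECH to ALAS2 counts was 3.08, 2.96 and 2.77 in DMSO and 1.26, 1.17 and 1.22 in treated libraries. It was 2.41-fold lower in treated libraries, lower in 3 of 3, with a log2 difference of -1.27 and a standard error of 0.05. The exact two-sided permutation test gave p = 0.1, the smallest possible. That outcome also follows from the levels above, as FECH was lower and ALAS2 higher in every treated library. Per kilobase of exon, the ratio was 1.62 ± 0.0856 in DMSO and 0.671 ± 0.0256 in treated cells (SD, n = 3 each). On that scale ALAS2 went from below FECH to above it, while FECH counts exceeded ALAS2 counts in every library. This change of order rests on annotated exon lengths of 3871 bases for FECH and 2134 for ALAS2. The lengths of the transcripts present in these cells were not measured.

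**Figure D3:**
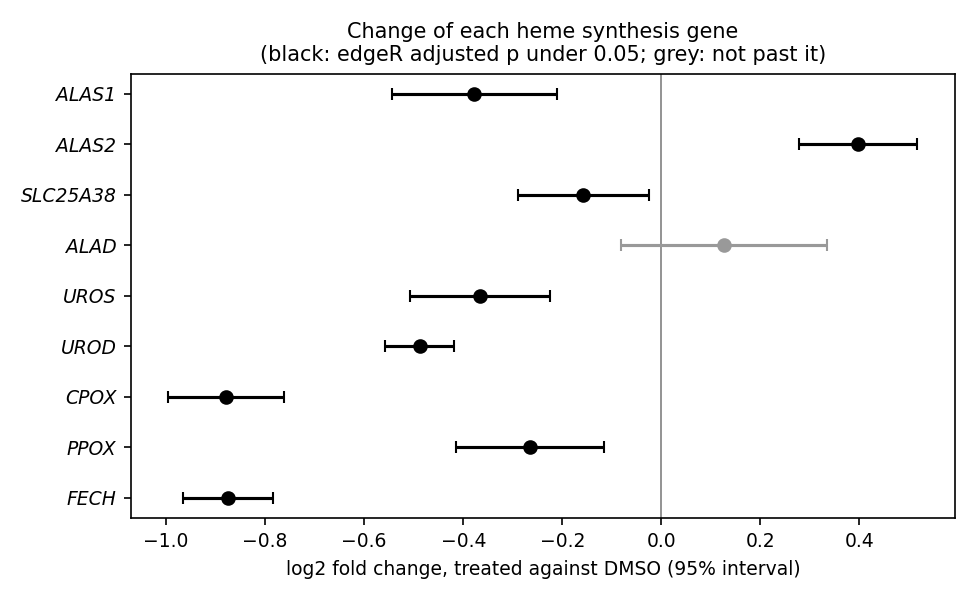
Log2 fold change of treated against DMSO cells (horizontal axis) for each heme synthesis gene in pathway order, with its 95% interval from edgeR (3 libraries per group); black points passed an adjusted p of 0.05 and the grey point did not. ALAS2 alone lies to the right with an interval above 0, CPOX and FECH lie farthest left near -0.88 and -0.87, and the interval of ALAD spans 0.

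Counting groups rather than tests, the CPM of 7 of the 9 genes did not overlap between DMSO and treated libraries, the exceptions being SLC25A38 and ALAD. Across all tested genes the groups did not overlap for 70.0%. Against the minimum fold of 1.2, 4 of the 9 genes passed (ALAS2 higher, and UROD, CPOX and FECH lower), against 38.6% of all tested genes. The authors' deposited table, whose header does not name its groups A and B, gives ratios of B to A of 1.30 for ALAS2 and 0.538 for CPOX. The folds of treated over DMSO found here, 1.32 and 0.544, were close to those ratios and not to their inverses. The authors' deposited table gives an adjusted p of 0.121 for SLC25A38 and of 0.706 for ALAD, and below 0.05 for the other 7 genes.

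Levels between genes are comparable only per length, so CPM were divided by the exonic length of each gene. On this scale UROD stood at 443 ± 9.02 CPM per kilobase in DMSO and 316 ± 8.70 in treated cells (SD, n = 3 each), above all the others. FECH followed in DMSO with 49.5 ± 1.104, then CPOX with 30.9 ± 1.42 and ALAS2 with 30.6 ± 1.12 CPM per kilobase. CPOX and ALAS2 overlapped between libraries. Below them came SLC25A38 (25.1 ± 2.07), PPOX (20.4 ± 1.39), ALAS1 (18.1 ± 2.26), UROS (13.6 ± 0.449) and ALAD (6.98 ± 0.927), of which only PPOX and ALAS1 overlapped as neighbours. In treated cells ALAS2 was second, with 40.4 ± 3.47 CPM per kilobase, followed by FECH with 27.0 ± 1.29 and SLC25A38 with 22.5 ± 1.58. CPOX dropped to rank 6 with 16.8 ± 0.803 and overlapped with PPOX at 17.0 ± 1.36. With the longest transcript as the length, UROS moved from rank 8 to 6 in both groups. ALAS2 then stood at rank 3 in DMSO and 2 in treated cells, and CPOX at rank 4 and 7.

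**Figure D4:**
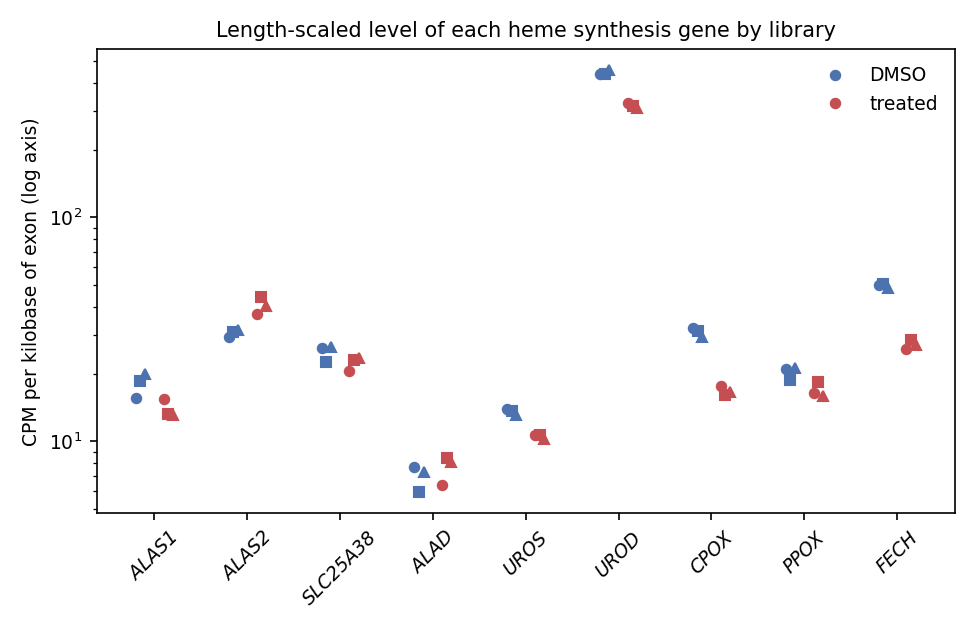
CPM per kilobase of exon (vertical log axis) of each heme synthesis gene in the 3 DMSO and 3 treated libraries; circles, squares and triangles are replicates 1, 2 and 3. UROD lies above 300 CPM per kilobase in every library, the other 8 genes lie between 5.93 and 50.4, and ALAS2 is the second highest gene in treated cells.

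Genes around the pathway were described from 4 fixed lists, by counts of their members. Each count stands beside all tested genes, of which 33.8% were higher and 32.7% lower with TMM. With total counts 5059 of the 12339 tested genes were higher and 3185 lower. With total counts the members higher and lower were 1 and 5 for heme transport and breakdown, 2 and 10 for iron delivery and iron-sulfur clusters, 4 and 9 for substrate supply and control, and 1 and 13 for heme-carrying proteins. Of 12 genes of heme transport and breakdown 9 were tested, and 7 of these fell and none rose, with a median log2 fold change of -0.27. BLVRB, a biliverdin reductase, fell from 301 ± 7.76 to 196 ± 3.29 CPM (SD, n = 3 each) and PGRMC2, a heme-binding membrane protein, from 128 ± 5.34 to 81.9 ± 1.70 CPM. BLVRA and SLC48A1 did not pass (log2 fold change -0.12 and 0.09), and SLC48A1 passed as higher with total counts (0.18). HMOX1, the inducible heme oxygenase, is listed at 0 counts in each of the 6 libraries. The annotation behind the counts is not known, and whether reads of HMOX1 could be assigned to it was not tested. If they could, a count of 0 allows a level up to 0.168 CPM. HMOX2, its constitutive relative, went from 58.5 ± 1.81 to 48.5 ± 1.94 CPM.

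Iron delivery and iron-sulfur cluster genes were all tested, and 13 of 16 fell while 2 rose, with a median log2 fold change of -0.39. Across all tested genes 32.7% fell and 33.8% rose. TFRC, the transferrin receptor, fell from 1271 ± 34.4 to 689 ± 57.1 CPM and STEAP3, which reduces iron in endosomes, from 78.2 ± 4.82 to 38.2 ± 5.26 CPM. SLC25A37, the mitochondrial iron carrier mitoferrin of red cells, fell from 103 ± 3.42 to 71.8 ± 4.59 CPM, while its relative SLC25A28 had 11.1 ± 0.519 and 11.2 ± 0.586 CPM (edgeR adjusted p = 0.882). The cluster scaffold gene ISCU rose from 56.6 ± 0.913 to 80.5 ± 4.66 CPM. HSCB, its co-chaperone, also passed as higher (log2 fold change 0.33, edgeR adjusted p = 0.0413), a call lost in 8 of 12 alternatives (adjusted p between 0.0105 and 0.278 over all of them), namely DESeq2 (0.0987), no filter (0.0741), the minimum fold (0.278), and leaving out any library but treated replicate 2.

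Among 16 genes for substrate supply and control of the pathway 15 were tested, of which 2 rose and 9 fell, with a median log2 fold change of -0.29. These 11 changed genes of 15 stand against 66.4% changed among all tested genes, 33.8% higher and 32.7% lower. SHMT2, which makes glycine in mitochondria, rose from 249.8 ± 7.94 to 449.6 ± 9.05 CPM, and LONP1, a protease of the mitochondrial matrix, from 313 ± 7.44 to 469 ± 6.01 CPM. The erythroid factors KLF1 and GATA1 fell, KLF1 by 1.94 and GATA1 by 0.57 on the log2 scale. IREB2, the iron regulatory protein that can hold back translation of ALAS2 mRNA, fell from 208 ± 4.75 to 151 ± 3.84 CPM. EIF2AK1, the kinase that senses low heme, fell by 0.18 on the log2 scale (edgeR adjusted p = 8.12e-05), and did not pass against the minimum fold of 1.2 (adjusted p = 1, range over all alternatives 1.04e-06 to 1). Its fall was 0.09 with total counts. BACH1, a repressor that heme inactivates, had 101 ± 2.69 and 104 ± 3.20 CPM and did not pass (adjusted p = 0.433), but passed as higher with total counts (adjusted p = 0.0134). CLPX, NRF1 and ACO1 did not pass either, and CLPX passed as higher with total counts (adjusted p = 0.0458). The total-count calls of BACH1, CLPX and SLC48A1 are relative to a scale on which the median of all genes is itself 0.10.

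Heme-carrying proteins, the users of the product, fell in 14 of 15 genes, all tested, with a median log2 fold change of -0.99. Across all tested genes 32.7% fell. The list counts HBA1, HBA2, HBG1 and HBG2 separately, and its globins ran from -1.48 (HBA2) to -0.95 (HBG2). Its other members spread more widely. CAT, CYB5A and CYP51A1 had -1.18, -0.99 and -0.99, and CYCS and SDHD -0.61 and -0.48. CYC1, SDHC and CYB5B had -0.35, -0.22 and -0.16, so the median does not stand for heme users in general. The embryonic globin HBE1 had a log2 fold change of -1.01 and HBZ one of -1.35, both below every synthesis gene. CAT, the heme enzyme catalase, fell from 209 ± 3.78 to 92.5 ± 2.61 CPM. DGCR8, a heme-binding protein of microRNA processing, did not pass (log2 fold change 0.02), and passed as higher with total counts (0.11). HBA1 and HBA2 are near-identical, as are HBG1 and HBG2, so how reads were split within each pair is uncertain.

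**Figure D5:**
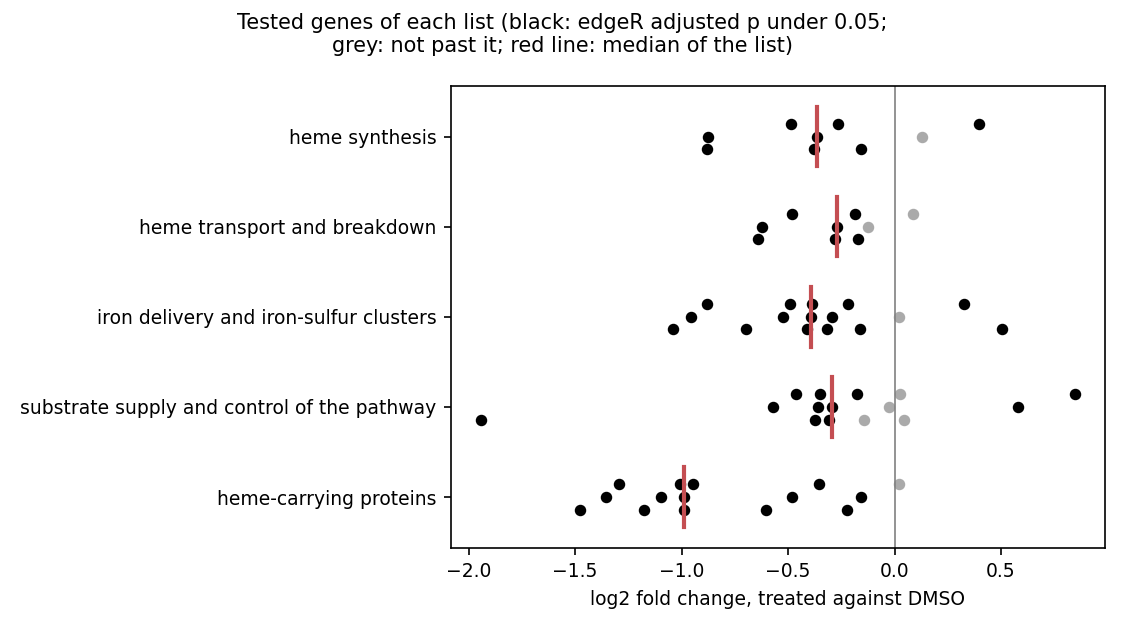
Log2 fold change of treated against DMSO cells (horizontal axis) for each tested gene of the heme synthesis genes and of the 4 lists around them; each point is a gene, black where the edgeR adjusted p was under 0.05 and grey where not, and the red line is the median of the list. Medians lie between -0.99 for heme-carrying proteins and -0.27 for heme transport and breakdown, and KLF1 is the point farthest to the left.

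Erythroid and K562 markers were read beside these genes. All 10 of them passed as lower, against 32.7% of all tested genes. Some also belong to the 4 lists, while HEMGN and EPOR, for example, are in none. The 10 markers summed to between 7386 and 7573 CPM in DMSO and to between 3593 and 3785 CPM in treated libraries. ALAS2, the erythroid first enzyme, is not on this marker list and rose. Whether the erythroid state of the cells changed was not tested, nor was its part in the falls of the synthesis genes. Markers of other cells were low. Liver markers, from the other tissue with high heme synthesis, summed to between 0.0908 and 0.222 CPM in DMSO and between 0.469 and 0.857 CPM in treated libraries, with TTR and SERPINA1 at 0. Macrophage markers summed to at most 0.333 CPM, with MARCO at 0. Markers of T and B cells summed to between 7.88 and 11.3 CPM, mostly CD3D, with CD2 and MS4A1 at 0, and those of fibroblasts and endothelium to between 6.91 and 13.96 CPM, with CDH5 at 0.

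The genes whose pattern over the 6 libraries was closest to ALAS2, by the root mean square distance of centred log2 CPM among 10803 genes, were KDELC2 (0.00577), C9orf16 (0.0214) and C6orf70 (0.0240). KDELC2 stood at 65.4 ± 2.36 CPM in DMSO libraries and at 86.2 ± 7.85 CPM after treatment. Closest to ALAS1 were ESRRB (0.0417), C19orf26 (0.0542) and L3MBTL1 (0.0558). ESRRB had 13.6 ± 1.18 and 10.2 ± 0.855 CPM. With 6 libraries in 2 groups, such likeness describes these libraries only.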

How the data were processed

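For each of the 6 libraries the authors deposited a table of raw counts by gene symbol. Per the labels' protocols, K562 cells at passages 13 to 16 grew in 10% serum, and a directional mRNA kit was used on 1000 ng of RNA. STAR, Cufflinks, DESeq2 and hg19 are listed without roles, per the submitters' processing notes. Not given in the sources used here are the counter, its strand setting and the annotation. Rows of unassigned reads (5 per library, between 10.9% and 13.1% of counts without a feature) were left out. The authors' deposited table holds their own fold ratio of group B to A, an adjusted p-value and a raw p-value for 17783 genes.

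Counts were tested with edgeR 4.0.16 in R 4.3.3 (quasi-likelihood test, two-sided, TMM factors, filterByExpr with a minimum count of 10, treatment as the only term), and p-values were adjusted by Benjamini-Hochberg over 12339 genes. Ratios were tested with exact permutation tests in scipy 1.17.1. The fit and its recovery of known changes were checked on simulated data. DESeq2 1.42.0, other scalings, no filter, a replicate block and leaving out each library were alternatives. The minimum fold of 1.2 was added after seeing the data. Exonic lengths were those of GENCODE 29 on GRCh38, matched by symbol. In GENCODE 29 exons of CPOX share 163 bases with another gene model of the same strand and those of ALAS2 share 3 bases with APEX2 on the opposite strand. Promoter sequences and their coordinates, the only coordinates given, are RefSeq's on GRCh38.p14, not hg19.

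Replicate pairs differed beyond counting noise (chi-square per degree of freedom between 2.38 and 6.22). The least alike pair was treated replicates 1 and 2 (6.22), and the most alike was DMSO replicates 1 and 2 (2.38). All libraries were kept. A count of 3 in a library corresponds to between 0.136 and 0.168 CPM, and this floor covers counting error only.

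The heme genes, lists, motifs and tests were chosen with earlier results of these data known. Named genes were the 9 heme genes, from each list the 2 changed genes of lowest p among the risers and among the fallers, the 3 genes nearest to ALAS1 and to ALAS2 (mean level 2 CPM or more), and HMOX1, SLC25A37, TFRC, GATA1, KLF1, BACH1, IREB2 and EIF2AK1. HMOX2, the heme-carrying proteins other than HBE1 and HBZ, and genes that went against or did not pass with their list were named after their values were seen. Not every enzyme of the pathway is among the 9 genes, and the remainder is not analysed here.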

Additional observations from a re-analysis of the deposited data

How the results depend on the processing

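Of 12 alternatives for each of the 9 heme genes, 99 results kept their direction and side of the threshold, 8 lost the call and 1 gained it. ALAS2, UROD, CPOX and FECH kept theirs throughout. Among results for the other listed genes 618 kept their side, 37 lost the call and 5 gained it. Against a minimum fold of 1.2, 4765 of all tested genes passed, and 4 of the heme genes. That setting left 3 of 9 tested genes of heme transport and breakdown and 9 of 16 of iron delivery and iron-sulfur clusters. It left 6 of 15 of substrate supply and control and 12 of 15 heme-carrying proteins. Among all tested genes the share was 38.6%. The minimum fold is stricter by construction. Leaving out each library in turn gave 7 or 8 changed heme genes and between 7668 and 8183 changed genes in all. The replicate numbers did not pair the libraries: the deviations of same-numbered DMSO and treated libraries had correlations of -0.0086, 0.0012 and -0.055, and no library correlated best with its own number. With a replicate block 8 heme genes and 8050 genes in all changed, and the log2 difference was 0.76 for the ratio of ALAS2 to ALAS1 (exact sign-flip p = 0.25, the smallest possible). With 3 libraries per group, small changes such as that of SLC25A38 depend on single libraries.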
